A study of Mus musculus with 9 samples.

Results

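RNA-seq libraries of the 2 Rbbp4 mutant embryonic stem cell (ESC) clones, Rbbp4Ins/Del and Rbbp4Ins/Ins, were compared with each other to see which genes separate them. The 6 libraries were chosen by their genotype labels, 3 for each clone, out of 9 in the series, and the 3 libraries of unedited Rbbp4+/+ E14 ESCs are given beside them as a reference. All 9 came from E14 mouse ESCs, of the strain given as 12910la in the labels, grown in a serum medium with leukemia inhibitory factor (LIF). Rbbp4Ins/Ins cells carry a 3-nucleotide insertion on both Rbbp4 alleles within codon 84. In Rbbp4Ins/Del cells only one allele has the insertion, while the other has lost 18 nucleotides, the codons 79 to 84. Both were made by CRISPR-Cas9 editing and each is 1 clone, so the allele and any other feature of a clone cannot be told apart. Nothing in the labels says that the 3 libraries of a clone came from separate cultures, so p-values measure only the spread between these libraries, which may be technical.

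RBBP4 is a WD-repeat protein that binds histones H3 and H4. It is a subunit of many chromatin complexes, among them PRC2, which methylates H3K27, the deacetylase complexes NuRD and SIN3, the nucleosome remodeler NURF, the histone chaperone CAF-1 and the cell cycle repressor DREAM, and its close relative RBBP7 takes part in most of them. The edited stretch of Rbbp4 is shown because the edited alleles differ there. It lies in the coding part of exon 3 of 12 of an annotated transcript (GRCm38, chr4:129328631-129328678, minus strand), it is read here from codon 74 to codon 89 in the direction of the transcript, and the capitals mark codons 79 to 84, the 18 bases that the deletion allele lacks. The last of these codons, GTC, is the one that the insertion alters.
Rbbp4 codons 74 to 89: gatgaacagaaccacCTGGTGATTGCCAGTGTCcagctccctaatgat

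Rbbp4 mRNA itself differed between the clones. Rbbp4Ins/Ins libraries had 5485, 5551 and 5776 normalized counts, that is, counts scaled to the mean library size, against 10129, 10344 and 10603 in Rbbp4Ins/Del and 9932, 9965 and 10117 in the control. The clones did not overlap, and Rbbp4Ins/Ins stood alone: its mean of 5604 ± 153 (SD, n = 3) lay below both the Rbbp4Ins/Del mean of 10359 ± 238 and the control mean of 10005 ± 99.1. The difference passed the test (log2 fold change 0.89, SE 0.029, adjusted p = 4.1e-24 for Rbbp4Ins/Del over Rbbp4Ins/Ins in the quasi-likelihood test of edgeR, adjusted by Benjamini-Hochberg, which gave each adjusted p below unless another tool is named). Against the control, Rbbp4Ins/Ins was lower (log2 fold change -0.84, adjusted p = 1.8e-25) and Rbbp4Ins/Del did not pass (log2 fold change 0.05, adjusted p = 0.11). Counts of reads on the whole gene do not tell the insertion from the deletion allele. They also give mRNA only: by Western blot, the study of these clones reported less RBBP4 protein in the mutants than in controls. Rbbp7 was lower in Rbbp4Ins/Del by a small amount, with 7371, 7536 and 7469.7 normalized counts in Rbbp4Ins/Ins against 6703, 6630.1 and 6894 in Rbbp4Ins/Del (log2 fold change -0.15, SE 0.028, adjusted p = 1.9e-04). Elsewhere, values set against each other without a name are those of Rbbp4Ins/Ins first and Rbbp4Ins/Del second, in the order of the replicate numbers.

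The files held 15838064 to 21366868 counted reads a library, and 14125 of 25239 gene symbols had enough reads to test. At an adjusted p of at most 0.01, 1527 genes (10.8% of those tested) differed between the clones, of which 872 (6.17%) were higher and 655 (4.64%) lower in Rbbp4Ins/Del. Most differences were small, and 85.6% of called genes were under 1.5-fold. Their absolute log2 fold changes had a median of 0.269. Over 2-fold and with a mean normalized count above 20 there were 40 genes (0.283% of those tested), 33 higher and 7 lower, and 34 of them had a mean below 100. A direct edgeR test for a change greater than 2-fold called 0 genes at this threshold, with 27 at an unadjusted p under 0.05, so 2-fold here is a limit on the estimate. The libraries of the clones did not overlap at 1513 of the called genes (99.1%), against 34.1% of all tested genes. Library totals, scaling factors (0.9926 to 1.016) and the share of reads on the ribosomal RNA gene Rn45s (2.04% to 2.5% in Rbbp4Ins/Ins and 2.07% to 2.6% in Rbbp4Ins/Del) overlapped between the clones.

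**Figure D1:**
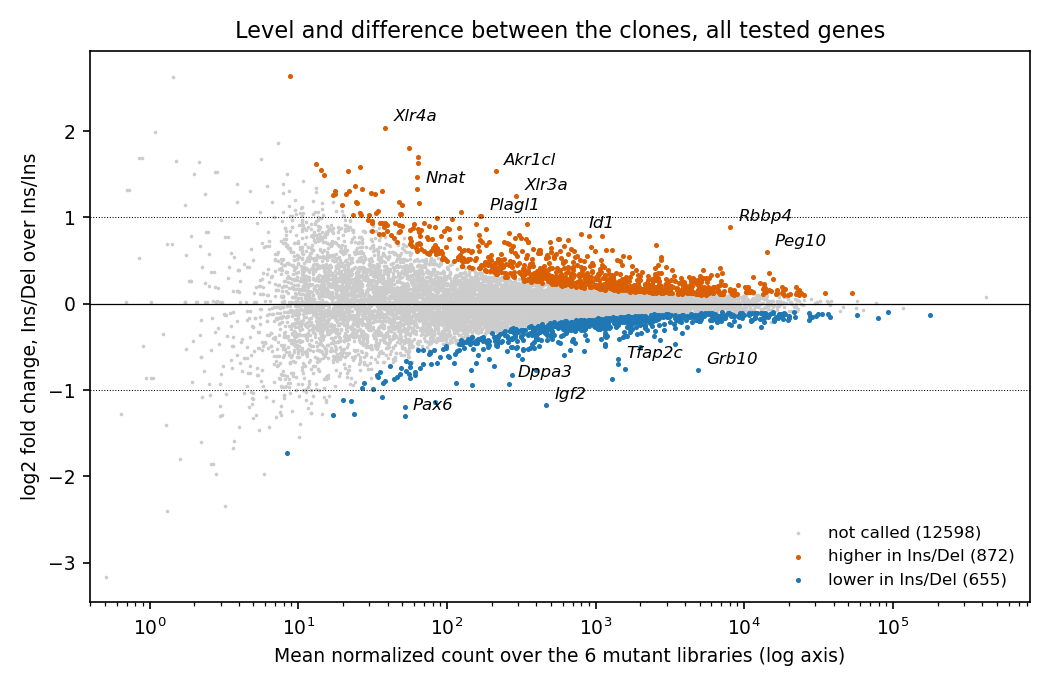
Mean normalized count over the 6 mutant libraries (x, log axis) against the log2 fold change of Rbbp4Ins/Del over Rbbp4Ins/Ins (y) for each of 14125 tested genes, with genes higher in Rbbp4Ins/Del in orange (872), lower in blue (655) and not called in grey. Dotted lines mark 2-fold, and most genes beyond them have few counts, while Rbbp4 stands apart at a high level.

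The X-linked Xlr genes gave the largest differences. These X-linked lymphocyte-regulated genes encode proteins related to the synaptonemal complex protein SYCP3, lie in tandem copies on the X chromosome, and include the imprinted genes Xlr3b, Xlr4b and Xlr4c. Of the 11 tested members of the family list, which counts Sycp3 as a relative, 8 were higher in Rbbp4Ins/Del and Sycp3 was lower, against 6.17% and 4.64% of all tested genes, and the list's median log2 fold change was 1.55 against -0.00355 over all genes. Promoters of 1 gene from each of the 3 subfamilies are shown to let the copies be compared, namely the member with the highest log2 fold change, as RefSeq gives them for GRCm38.p6 from 250 bases before to 50 bases after the start, in the direction of transcription, with each CCAAT on the printed strand or its reverse complement in capitals. They lie on the minus strand at chrX:73082458-73082757 for Xlr4a, chrX:73265341-73265640 for Xlr3c and chrX:73117653-73117952 for Xlr5a.
Xlr4a: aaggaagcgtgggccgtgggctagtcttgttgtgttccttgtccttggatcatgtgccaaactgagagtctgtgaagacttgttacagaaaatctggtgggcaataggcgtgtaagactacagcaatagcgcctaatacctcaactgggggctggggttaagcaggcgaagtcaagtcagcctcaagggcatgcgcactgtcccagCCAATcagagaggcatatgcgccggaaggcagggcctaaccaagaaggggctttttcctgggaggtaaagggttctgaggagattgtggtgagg
Xlr3c: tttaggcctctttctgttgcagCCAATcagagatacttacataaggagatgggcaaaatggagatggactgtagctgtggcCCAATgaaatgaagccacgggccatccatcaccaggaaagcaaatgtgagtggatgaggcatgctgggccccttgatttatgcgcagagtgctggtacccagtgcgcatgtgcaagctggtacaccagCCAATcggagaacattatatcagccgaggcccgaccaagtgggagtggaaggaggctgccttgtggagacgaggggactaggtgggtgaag
Xlr5a: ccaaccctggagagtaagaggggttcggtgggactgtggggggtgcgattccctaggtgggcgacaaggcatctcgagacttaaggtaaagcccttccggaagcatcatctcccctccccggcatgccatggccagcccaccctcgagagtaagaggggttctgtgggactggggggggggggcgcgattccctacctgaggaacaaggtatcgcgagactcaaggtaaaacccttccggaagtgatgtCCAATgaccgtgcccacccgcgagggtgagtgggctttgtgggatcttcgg

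RefSeq held promoters for all 9 genes named Xlr3, Xlr4 or Xlr5, and on either strand CCAAT occurred in 8 of these 9 against 37.4% of 32851 mouse promoters of this length. The longest run common to the 6 Xlr3 and Xlr4 promoters, CAGCCAATCAGAGA, contains CCAAT. It was derived from these promoters and occurred in 16 promoters (0.0487%) in all. The palindrome TGCGCA was in the same 6, against 7.76% of all promoters, whereas CACGTG and GGGCGG were in 0 of 9, against 7.15% and 35.7%. Xlr5c was the 1 without CCAAT, and it held 1 CpG in 300 bases where Xlr5a and Xlr5b held 16 each and the median promoter 7. Xlr5a and Xlr5b shared an unbroken run of 255 identical bases, and Xlr4b and Xlr4c one of 169. The promoters are thus not independent of each other, and whether any motif is enriched in them was not tested. Reads of such similar copies can be split or lost in counting, so the member that a read came from is uncertain. Exons of Xlr5c on the same strand cover 5.48% of the exons of Xlr5a. The annotated span of Xlr5a (chrX:73107635-73292976) also takes in those of Xlr5b, Xlr3b, Xlr4b and Xlr3c.

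Xlr3a was the most abundant copy and is given for that reason, after its values were seen. It had 159, 172 and 192 normalized counts in Rbbp4Ins/Ins and 376, 427 and 430.4 in Rbbp4Ins/Del (log2 fold change 1.24, SE 0.093, adjusted p = 5.9e-13), while the control libraries had 4.28, 7.33 and 9.74. Every Rbbp4Ins/Del library stood above every Rbbp4Ins/Ins library, and both clones stood far above the control. Xlr4a had 15.4, 9.03 and 20.1 normalized counts in Rbbp4Ins/Ins against 51.1, 65.9 and 69.4 in Rbbp4Ins/Del, the largest estimate of any gene with a mean above 20 (log2 fold change 2.04, SE 0.26, adjusted p = 1.9e-07). For Xlr3c the values were 24.8, 31.6 and 18.0 against 79.7, 93.8 and 85.6 (log2 fold change 1.81, SE 0.2, adjusted p = 1.2e-08). Xlr5a had 32.5, 19.18 and 38.1 against 80.8, 112 and 103 (log2 fold change 1.70, SE 0.21, adjusted p = 7.6e-08). No control library exceeded 5.24 normalized counts in any of these 3 genes.

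The remaining copies were also compared one by one. Xlr3b had 32.5, 29.3 and 30.7 in Rbbp4Ins/Ins and 88.9, 91.1 and 109 in Rbbp4Ins/Del (log2 fold change 1.63, SE 0.18, adjusted p = 1.2e-08). Xlr4b had 14.5, 13.5 and 10.6 against 41.9, 34.3 and 41.7 (log2 fold change 1.58, SE 0.28, adjusted p = 6.3e-05). Xlr5b had 16.3, 13.5 and 15.9 against 40.9, 37.0 and 38.2 (log2 fold change 1.33, SE 0.27, adjusted p = 4.3e-04). Xlr4c was close to the threshold, with 2.57, 12.4 and 7.40 in Rbbp4Ins/Ins and 26.6, 12.6 and 24.3 in Rbbp4Ins/Del (log2 fold change 1.55, SE 0.43, adjusted p = 0.0095), so that the clones were separated by less than 1 normalized count. Its adjusted p was 0.12 without Rbbp4Ins/Ins replicate 1, 0.0274 without Rbbp4Ins/Ins replicate 3, 0.078 without Rbbp4Ins/Del replicate 1 and 0.0424 without Rbbp4Ins/Del replicate 3. Xlr5c did not pass, with 12.8, 10.2 and 12.7 against 23.5, 16.2 and 27.8 (log2 fold change 0.88, SE 0.34, adjusted p = 0.064), nor did Xlr, with 18.8, 19.18 and 14.8 against 22.5, 21.7 and 22.0 (log2 fold change 0.32, adjusted p = 0.52). DESeq2 called 5 of the 8 higher and gave no adjusted p for the other 3, Xlr4b, Xlr4c and Xlr5b. Sycp3, the autosomal relative, went the other way, with 521, 482 and 518 in Rbbp4Ins/Ins, 355, 430.4 and 423 in Rbbp4Ins/Del and 1027, 1061 and 1057 in the control (log2 fold change -0.33, SE 0.068, adjusted p = 4.0e-04), and without Rbbp4Ins/Del replicate 1 its adjusted p was 0.012.

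**Figure D2:**
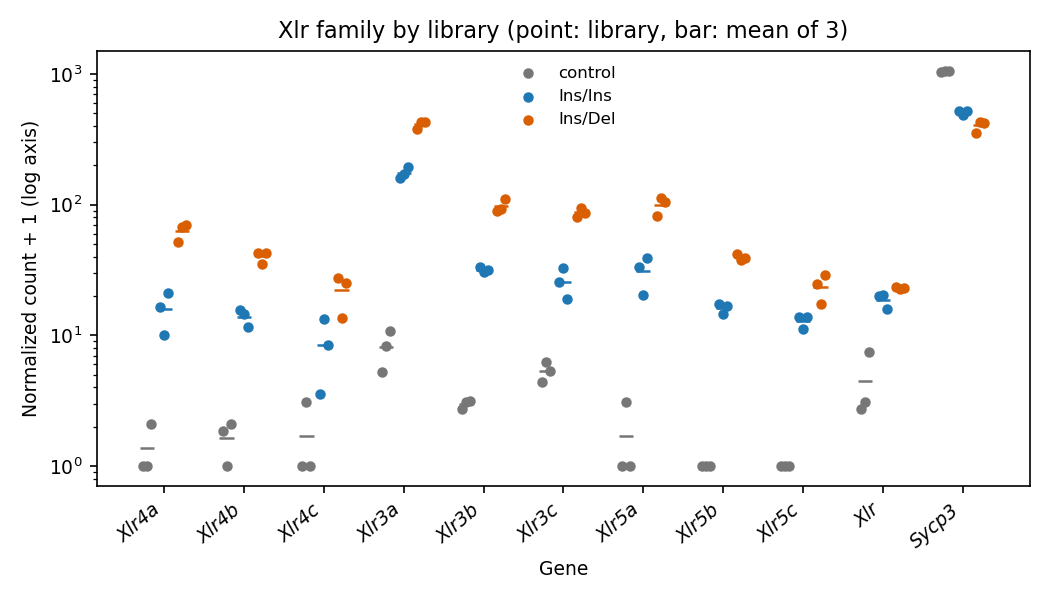
Normalized count plus 1 (y, log axis) of the Xlr genes and Sycp3 (x) in each library, with grey points for the control, blue for Rbbp4Ins/Ins, orange for Rbbp4Ins/Del and bars for the mean of 3 libraries. In the 9 Xlr3, Xlr4 and Xlr5 genes orange points stand above blue points and both above grey, whereas Sycp3 runs from grey down to orange.

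The 12 highest and 12 lowest estimates were taken only from called genes at which the clones did not overlap, so that separation was a condition. Outside the Xlr family the 12 highest estimates included Akr1cl, Peg13, Radx, Asz1, Nnat and Tbx21. Akr1cl, an aldo-keto reductase gene, had 103, 104 and 119 normalized counts in Rbbp4Ins/Ins and 262, 329 and 359 in Rbbp4Ins/Del (log2 fold change 1.54, SE 0.12, adjusted p = 8.3e-13), against 1.71, 0 and 2.17 in the control. Radx, which encodes a single-stranded DNA binding protein of replication forks, had 29.1, 23.7 and 47.6 in Rbbp4Ins/Ins, 99.2, 90.2 and 87.9 in Rbbp4Ins/Del and 16.2, 13.6 and 22.7 in the control (log2 fold change 1.47, SE 0.2, adjusted p = 4.6e-07). In both genes every control library lay below every mutant library. Asz1, a gene of the piRNA pathway of germ cells, had 11.1, 21.4 and 8.46 in Rbbp4Ins/Ins and 26.6, 40.6 and 35.9 in Rbbp4Ins/Del (log2 fold change 1.36, SE 0.33, adjusted p = 0.0024). Its adjusted p was 0.0304 without Rbbp4Ins/Del replicate 2, 0.0101 without Rbbp4Ins/Del replicate 3, 0.0263 without Rbbp4Ins/Ins replicate 1 and 0.0237 without Rbbp4Ins/Ins replicate 3. Tbx21, the T-box factor of T helper cells, had 13.7, 12.4 and 11.6 against 35.8, 29.8 and 28.9 (log2 fold change 1.31, SE 0.3, adjusted p = 0.0015). It had an adjusted p of 0.015 without Rbbp4Ins/Del replicate 1.

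The 12 lowest estimates were those of Pax6, Zfp608, Tagln, Igf2, Prlr, Kctd12b, Ppp2r3d, Mobp, AF357399, Celsr3, Dppa3 and Slc40a1. Pax6, a transcription factor of the eye and the neural tube, fell from 666, 695 and 674 normalized counts in the control to 76.98, 68.8 and 75.1 in Rbbp4Ins/Ins and 27.6, 28.0 and 34.7 in Rbbp4Ins/Del (log2 fold change -1.31, SE 0.17, adjusted p = 1.9e-07 between the clones). Tagln, an actin-binding protein of smooth muscle, had 2137, 2018 and 1828 in the control, 79.5, 71.1 and 66.6 in Rbbp4Ins/Ins and 30.7, 25.3 and 41.7 in Rbbp4Ins/Del (log2 fold change -1.19, SE 0.19, adjusted p = 8.3e-06), with 62.42% of its exons covered by Gm48529 on the opposite strand. In these genes Rbbp4Ins/Del was the farther from the control. Celsr3, an adhesion receptor of the cadherin family, showed the same order with 563, 569.9 and 599.8 in the control, 189.9, 194 and 192 in Rbbp4Ins/Ins and 84.8, 97.4 and 120.3 in Rbbp4Ins/Del (log2 fold change -0.94, SE 0.11, adjusted p = 3.6e-08). So did Slc40a1, the iron exporter ferroportin, with 507, 453 and 519.7 in the control, 149.7, 165 and 136 in Rbbp4Ins/Ins and 72.6, 70.4 and 97.2 in Rbbp4Ins/Del (log2 fold change -0.92, SE 0.13, adjusted p = 9.9e-07).

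At Prlr, Dppa3 and Ppp2r3d the Rbbp4Ins/Ins libraries were nearer to the control than those of Rbbp4Ins/Del. Prlr, the prolactin receptor, had 117, 123 and 100.4 normalized counts in Rbbp4Ins/Ins and 140.2, 120.5 and 116 in the control, against 59.3, 47.8 and 47.4 in Rbbp4Ins/Del (log2 fold change -1.14, SE 0.15, adjusted p = 4.2e-07). Only Rbbp4Ins/Del differed from the control at this gene by the test (log2 fold change -1.29, adjusted p = 7.2e-10, against -0.15, adjusted p = 0.29 for Rbbp4Ins/Ins), and the direct comparison of the clones above is the test of that difference. Dppa3, an oocyte and early embryo factor that guards DNA methylation, had 424, 412 and 415 in the control, 358, 337 and 332 in Rbbp4Ins/Ins and 164, 176 and 205 in Rbbp4Ins/Del (log2 fold change -0.93, SE 0.086, adjusted p = 1.8e-10). Ppp2r3d, a regulatory subunit of protein phosphatase PP2A, had 60.7, 80.7 and 61.7 in the control, 50.5, 55.3 and 43.3 in Rbbp4Ins/Ins and 21.5, 22.6 and 26.6 in Rbbp4Ins/Del (log2 fold change -1.08, SE 0.22, adjusted p = 4.4e-04). Zfp608, Kctd12b and Mobp were instead far below the control in both clones. Zfp608 had 439, 427 and 457 in the control, 25.7, 42.9 and 32.8 in Rbbp4Ins/Ins and 18.4, 13.5 and 8.10 in Rbbp4Ins/Del (log2 fold change -1.28). Kctd12b had 346, 314 and 361 in the control, 31.6, 31.6 and 30.7 in Rbbp4Ins/Ins and 15.3, 15.3 and 11.6 in Rbbp4Ins/Del (log2 fold change -1.13). Mobp, a myelin protein gene, had 106, 126 and 110.4 in the control, 43.6, 45.1 and 38.1 in Rbbp4Ins/Ins and 16.4, 23.5 and 24.3 in Rbbp4Ins/Del (log2 fold change -0.98). In all 3 the clones did not overlap, which the rule for naming them required. Mobp had an adjusted p of 0.019 without Rbbp4Ins/Del replicate 1. At AF357399 it was Rbbp4Ins/Ins that stood away from the control, with 21.4, 16.8 and 15.2 in the control, 41.1, 35.0 and 29.6 in Rbbp4Ins/Ins and 13.3, 17.1 and 24.3 in Rbbp4Ins/Del (log2 fold change -0.98), and its call was lost with adjusted p = 0.058 in DESeq2 and from 0.021 to 0.076 in the fits without Rbbp4Ins/Del replicate 1, Rbbp4Ins/Del replicate 2, Rbbp4Ins/Ins replicate 1 or Rbbp4Ins/Ins replicate 2.

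Among the partners of RBBP4 in its complexes, several members of PRC2 were called, each with a small change. In the PRC2 list, 5 of 15 tested members were higher and 2 lower, against 6.17% and 4.64% of all genes. Besides Rbbp4 the higher ones were Epop, an elongin-binding accessory subunit (log2 fold change 0.34, adjusted p = 6.6e-09), Jarid2, which helps recruit the complex (0.20, adjusted p = 2.1e-07), and the core subunits Eed (0.15, adjusted p = 2.2e-04) and Ezh2 (0.12, adjusted p = 0.0041). Epop had 6037, 5832 and 5484 normalized counts in Rbbp4Ins/Ins, 7438, 7314 and 7157 in Rbbp4Ins/Del and 4335, 4505 and 3899 in the control, so that Rbbp4Ins/Del was the highest of the 3 lines. Suz12, the third core subunit, had 7213, 7400.3 and 7435 in Rbbp4Ins/Ins and 7226, 7085 and 7041 in Rbbp4Ins/Del and did not pass (log2 fold change -0.046, adjusted p = 0.27). Ezh1, the alternative methyltransferase, and Rbbp7 were the members that were lower, with -0.25 (adjusted p = 0.0016) for Ezh1, which was 0.032 without Rbbp4Ins/Del replicate 2 and 0.014 without Rbbp4Ins/Ins replicate 1, leaving 1 member lower in those fits.

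In NuRD, 3 of 15 were higher (Rbbp4, Hdac2 and Chd5) and 3 lower (Mta1, Mta3 and Rbbp7), against 6.17% and 4.64% of all tested genes, and the list's median log2 fold change was 0.00357. Mta1, a scaffold subunit, had 2570.3, 2469 and 2465 normalized counts in Rbbp4Ins/Ins and 2243, 2146 and 2158 in Rbbp4Ins/Del (log2 fold change -0.20, SE 0.035, adjusted p = 6.6e-05). Chd4, the main remodeler, had 12767, 12774 and 12942 against 12965, 12161 and 13182 (log2 fold change -0.007, adjusted p = 0.9). The calls of Hdac2 (0.14), Chd5 (0.28) and Mta3 (-0.12) were lost in 4, 5 and 6 of the 6 fits that left out a mutant library, with adjusted p up to 0.0366, 0.0351 and 0.0628. In the SIN3 and CoREST list 1 of 20 was higher and 2 lower, the scaffolds Sin3a (-0.13) and Sin3b (-0.21), in the CAF-1, NURF and chaperone list 2 of 20 were higher and 1 lower, in the DREAM and MuvB list 1 of 17 was higher, and among 16 lysine acetyltransferases 2 were higher. In percent these were 5% higher and 10% lower, 10% higher and 5% lower, 5.88% higher and 12.5% higher, against the same shares of all genes. The counts moved with 1 library left out. NuRD had 1 higher without Rbbp4Ins/Del replicate 2 or 3 or Rbbp4Ins/Ins replicate 2. SIN3 and CoREST had 0 higher without Rbbp4Ins/Del replicate 1 or 3 or Rbbp4Ins/Ins replicate 2 or 3, and 1 lower without Rbbp4Ins/Del replicate 1 or Rbbp4Ins/Ins replicate 3. CAF-1, NURF and chaperones had 1 higher without Rbbp4Ins/Del replicate 1, 2 or 3 or Rbbp4Ins/Ins replicate 1, and 0 lower without Rbbp4Ins/Del replicate 2 or Rbbp4Ins/Ins replicate 2 and 2 lower without Rbbp4Ins/Del replicate 1 or control replicate 1, 2 or 3. DREAM and MuvB had 0 higher without Rbbp4Ins/Del replicate 1, 2 or 3 or Rbbp4Ins/Ins replicate 2 or 3, and 1 lower without Rbbp4Ins/Ins replicate 3. The acetyltransferases had 1 higher without Rbbp4Ins/Ins replicate 1 or 2, and 1 lower without control replicate 1, 2 or 3. Chaf1a and Chaf1b, the subunits that carry RBBP4 in CAF-1, did not pass (log2 fold changes -0.034 and -0.13).

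Genes of the 2-cell-like state, in which a small share of cultured ESCs expresses transcripts of the 2-cell embryo, were higher in Rbbp4Ins/Del. Of 23 tested members of the list 16 were higher (69.6%) and 0 lower, against 6.17% and 4.64% of all tested genes. In the list 22 of 23 estimates were above 0, and the median log2 fold change was 0.464. Zscan4d, one of a cluster of zinc finger genes tied to telomere upkeep, had 746, 803 and 785 normalized counts in Rbbp4Ins/Ins, 1282, 1162 and 1123 in Rbbp4Ins/Del and 334, 341 and 372 in the control (log2 fold change 0.62, SE 0.054, adjusted p = 3.7e-11). Every Rbbp4Ins/Del library was above every Rbbp4Ins/Ins library, and every Rbbp4Ins/Ins library above every control library. Pramel6, a PRAME family gene, had 391, 390.4 and 384 in Rbbp4Ins/Ins and 586, 604 and 633 in Rbbp4Ins/Del (log2 fold change 0.64, SE 0.066, adjusted p = 1.9e-09), against 15.4, 13.6 and 10.8 in the control. Its neighbour Pramel7 had 472, 485 and 409 against 683, 694 and 715 (log2 fold change 0.61, SE 0.067, adjusted p = 9.2e-09). Usp17lb, one of a cluster of deubiquitinase genes, had 271, 314 and 311 against 488, 469 and 422 (log2 fold change 0.63, SE 0.079, adjusted p = 1.3e-07). Pramel6 and Pramel7 kept the order of the Zscan4 genes, with the control the lowest.

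Zscan4f (0.58) and Usp17ld (0.70, adjusted p = 0.0025) were among the other members that passed. The Usp17ld call was lost in DESeq2 (adjusted p = 0.022). In edgeR it was lost without Rbbp4Ins/Del replicate 2 or 3 or Rbbp4Ins/Ins replicate 1 or 3 (adjusted p 0.0114 to 0.0162). Members that did not pass were Eif1a (-0.018), Sp110, Pramef25, Usp17lc, Zfp352, Tdpoz3 and Tdpoz4, the last with log2 fold change 0.48 and adjusted p = 0.099. Summed over the 28 members in the files, the libraries had 8058 to 8309 normalized counts in the control, 13198 to 13834 in Rbbp4Ins/Ins and 16432 to 16622 in Rbbp4Ins/Del. The Zscan4, Usp17l and Gm members are near-identical copies, so these counts are less certain one by one than as a sum. In bulk RNA a larger share of cells in this state and more RNA in each such cell cannot be told apart.

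The core pluripotency genes were close in the clones. Pou5f1 (Oct4) had 16649.5, 16589 and 16606 normalized counts in Rbbp4Ins/Ins and 17849, 17819 and 17337 in Rbbp4Ins/Del and did not pass (log2 fold change 0.089, adjusted p = 0.019), nor did Nanog, with 11007, 11301 and 11476 against 11219, 11664 and 11285 (adjusted p = 0.75). Of the 10 ESC markers, 2 were higher (20%) and 4 lower (40%), against 6.17% and 4.64% of all tested genes. The higher ones were Zfp42 and Tdgf1, and the lower ones Sox2, Utf1, Dppa5a and Lin28a. The Sox2 call was lost without Rbbp4Ins/Del replicate 2 or 3 or Rbbp4Ins/Ins replicate 2 or 3 (adjusted p up to 0.0591). It was also lost with size factors in place of TMM (0.0136). Tdgf1 and Lin28a were lost in some fits without 1 library (up to 0.025 and 0.035) and Utf1 in DESeq2 (0.0285). None differed by more than 0.24 on the log2 scale, and the summed level ran from 130286 to 132358 in Rbbp4Ins/Ins and from 129420.0 to 132109 in Rbbp4Ins/Del. The labelled cell type is thus borne by its markers in both clones. The marker count was 1 higher without Rbbp4Ins/Del replicate 2 or 3 or Rbbp4Ins/Ins replicate 1, and 2 lower without Rbbp4Ins/Del replicate 2 or Rbbp4Ins/Ins replicate 3. Of the 20 naive pluripotency genes, 8 were higher (40%) and 3 lower (15%), with 1 lower without Rbbp4Ins/Del replicate 3 or Rbbp4Ins/Ins replicate 1. Manba, a lysosomal mannosidase, had 2142, 2152 and 2153 in Rbbp4Ins/Ins and 2778, 2889 and 2916 in Rbbp4Ins/Del (log2 fold change 0.41, SE 0.035, adjusted p = 1.2e-11). The adhesion molecule Jam2 had 5069.7, 5467 and 5231 against 6672, 6758 and 6469 (log2 fold change 0.34, SE 0.033, adjusted p = 6.5e-10), and Dppa3 went the other way. Klf2, Klf4, Klf5, Esrrb and Tfcp2l1, the naive transcription factors, did not pass. Of 19 formative and primed genes 6 were higher (31.6%) and 2 lower (10.5%). Otx2, a driver of exit from the naive state, was lower, with 437, 425 and 423 in Rbbp4Ins/Ins, 299, 308 and 297 in Rbbp4Ins/Del and 1341, 1303 and 1481 in the control (log2 fold change -0.51, SE 0.071, adjusted p = 9.9e-07). Myc was higher, with 778, 823 and 752 against 1081, 1067 and 1019 (log2 fold change 0.43, SE 0.052, adjusted p = 5.5e-08).

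Several genes of the primitive endoderm, the lineage that lines the blastocyst cavity, were higher in Rbbp4Ins/Del. These were 7 of 16 tested members of the list (43.8%) with 0 lower, against 6.17% and 4.64% of all tested genes. The list had a median log2 fold change of 0.423. Col4a1, a basement membrane collagen chain, had 949, 919.7 and 888 normalized counts in Rbbp4Ins/Ins, 1458, 1421 and 1365 in Rbbp4Ins/Del and 1211, 1171 and 1034 in the control (log2 fold change 0.62, SE 0.05, adjusted p = 5.1e-12). Sparc, a matrix glycoprotein, had 1329, 1344 and 1432 in Rbbp4Ins/Ins and 1942, 1951 and 2094 in Rbbp4Ins/Del (log2 fold change 0.54, SE 0.042, adjusted p = 1.9e-12). The laminin chain Lama1 had 1551, 1426 and 1476 against 2007, 1995 and 2036 (log2 fold change 0.44, SE 0.04, adjusted p = 1.5e-10). In these genes the clones did not overlap. Pdgfra, the receptor that marks the lineage early, had 26.5, 19.18 and 18.0 in Rbbp4Ins/Ins and 40.9, 39.7 and 44.0 in Rbbp4Ins/Del (log2 fold change 0.93, SE 0.25, adjusted p = 0.0062). Sox7 had 69.3, 88.0 and 55.0 against 104, 107 and 106 (log2 fold change 0.59, SE 0.16, adjusted p = 0.0075). Both calls rest on few reads. The Pdgfra call was lost without Rbbp4Ins/Del replicate 1, 2 or 3 or Rbbp4Ins/Ins replicate 2 or 3 (adjusted p 0.0178 to 0.0351). The Sox7 call was lost without Rbbp4Ins/Del replicate 1, 2 or 3 or Rbbp4Ins/Ins replicate 1 or 3 (adjusted p 0.0219 to 0.069). DESeq2 gave an adjusted p of 0.034 for Pdgfra and 0.049 for Sox7.

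The defining transcription factors of this lineage had few reads. Gata6 had 22.2, 24.8 and 13.7 normalized counts in Rbbp4Ins/Ins and 42.9, 37.9 and 26.6 in Rbbp4Ins/Del (log2 fold change 0.83, adjusted p = 0.029), Gata4 had 13.7, 18.1 and 15.9 against 29.6, 21.7 and 15.0 (adjusted p = 0.29) and Sox17 had 16.3, 6.77 and 10.6 against 19.4, 18.9 and 11.6 (adjusted p = 0.32). The members that passed are thus mostly matrix genes, which ESCs also express: the summed level of the 20 list members was 22404 to 23114 in the control, 20724 to 21495 in Rbbp4Ins/Ins and 25594 to 26440.0 in Rbbp4Ins/Del. Of 34 tested laminin, integrin and related genes 9 were higher (26.5%) and 0 lower, against 6.17% and 4.64% of all tested genes. The higher ones included Itga5, the fibronectin receptor chain (log2 fold change 0.31, adjusted p = 1.2e-08), and Nid1, nidogen (0.27, adjusted p = 1.7e-08). Of 33 collagens 5 were higher (15.2%) and 0 lower, Col4a1 and Col4a2 among them, with 3 higher without Rbbp4Ins/Del replicate 1. The laminin and integrin list summed to 81287 to 82888 in the control, 73918 to 74968 in Rbbp4Ins/Ins and 80568 to 83911 in Rbbp4Ins/Del. The collagens summed to 16745.5 to 17714.6, 15570 to 15628.8 and 16708.8 to 17326.5 in the same order. In both sums Rbbp4Ins/Del overlapped the control and Rbbp4Ins/Ins lay below it.

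Markers of other cell types were called in part, at 6.67% higher for mesoderm, 12.5% higher and 12.5% lower for neural, 22.2% higher and 11.1% lower for fibroblast and 5.88% higher and 23.5% lower for trophectoderm genes, against 6.17% and 4.64% of all tested genes. Of 15 mesoderm and streak genes 1, the VEGF receptor Kdr, was higher, with 49.6, 58.7 and 53.9 normalized counts in Rbbp4Ins/Ins and 86.9, 96.5 and 92.6 in Rbbp4Ins/Del (log2 fold change 0.78, SE 0.16, adjusted p = 4.4e-04), while T had 2.57, 3.38 and 1.06 against 0, 0.902 and 0. Of 8 tested neural genes Pax6 was lower and Tubb3, a neuronal tubulin, was higher (log2 fold change 0.42, SE 0.05, adjusted p = 4.2e-08). Among fibroblast markers Thy1 and Vim were higher and Fn1 lower out of 9 tested, with 1 higher without Rbbp4Ins/Del replicate 2 or 3 or Rbbp4Ins/Ins replicate 2, and Col3a1, Lum, Postn and Twist2 had at most 3.39 normalized counts in any mutant library. The 15 fibroblast and feeder genes summed to 31549.9 to 31926 in Rbbp4Ins/Ins and 27804 to 29744 in Rbbp4Ins/Del, and their part in the other results was not tested. Among 17 tested trophectoderm genes 4 were lower, Krt7, Tfap2c, Krt18 and Rhox9, and Peg10 was higher. The keratin Krt18 had 2136, 2199 and 1939 in the control, 421, 364 and 358 in Rbbp4Ins/Ins and 242, 262 and 294 in Rbbp4Ins/Del (log2 fold change -0.53, SE 0.082, adjusted p = 5.6e-06). Krt7 had 94.1, 72.2 and 80.3 against 46.0, 41.5 and 63.6 (log2 fold change -0.74, SE 0.17, adjusted p = 0.0013). The adjusted p of Krt7 was 0.022 without Rbbp4Ins/Del replicate 2, 0.023 without Rbbp4Ins/Ins replicate 1 and 0.0107 without Rbbp4Ins/Del replicate 1, and that of Rhox9 was between 0.0126 and 0.0611 in the 6 fits that each left out a mutant library. The trophectoderm list had 2 lower without Rbbp4Ins/Del replicate 1 or Rbbp4Ins/Ins replicate 1. Cdx2, the defining trophectoderm factor, had at most 4.63 in any mutant library. The summed level of the 19 members was higher in Rbbp4Ins/Del (20399 to 21197 against 15769 to 15859), and Peg10 made up most of that sum.

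**Figure D3:**
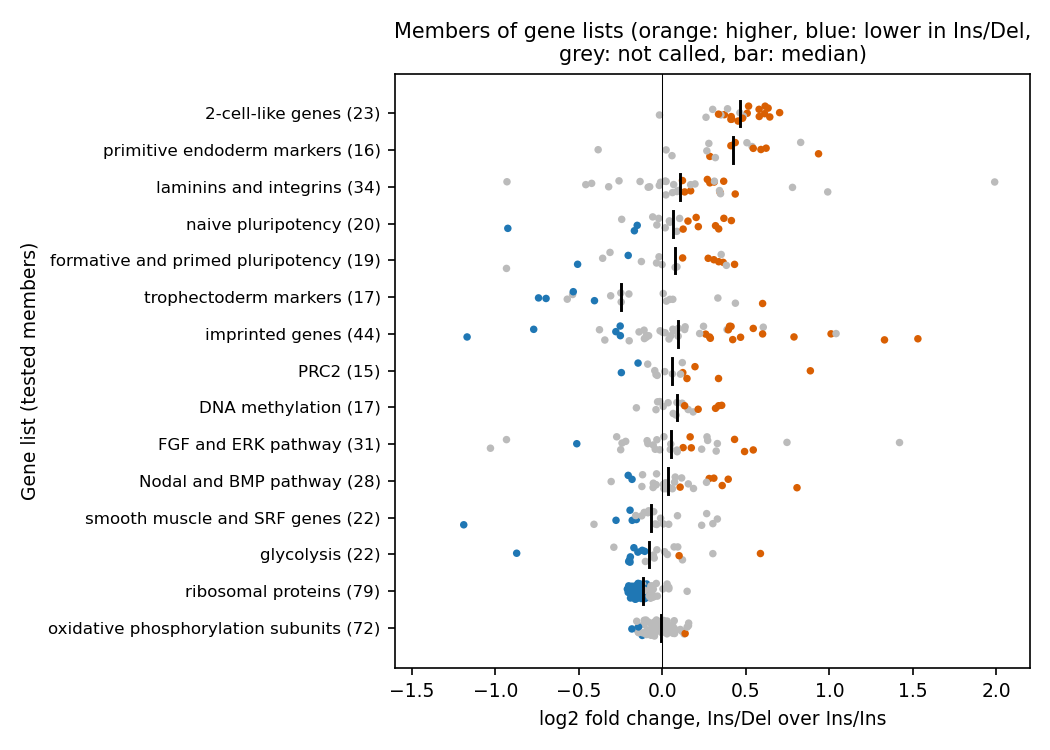
Log2 fold change of Rbbp4Ins/Del over Rbbp4Ins/Ins (x) for the tested members of 15 gene lists (y, number of members in brackets), in orange where higher and blue where lower at an adjusted p of at most 0.01, in grey otherwise, with a bar at each median. The 2-cell-like genes and primitive endoderm markers lie mostly to the right of 0 (medians 0.464 and 0.423), and the ribosomal proteins form a narrow group to its left (median -0.116).

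Imprinted genes, which are expressed from the allele of one parent, were often different between the clones: 14 of 44 tested were higher in Rbbp4Ins/Del (31.8%) and 5 lower (11.4%), against 6.17% and 4.64% of all genes. The largest were divided in direction. Igf2, a fetal growth factor of the paternal allele, had 1530.3, 1502 and 1472 normalized counts in the control, 641, 678 and 617 in Rbbp4Ins/Ins and 259, 308 and 290.4 in Rbbp4Ins/Del (log2 fold change -1.17, SE 0.067, adjusted p = 2.3e-16), and 62.83% of its exons are shared with Gm49394 on the same strand. Its neighbour H19, a maternal non-coding RNA controlled by the same imprinting region, went the other way, with 88.1, 75.4 and 70.4 in the control, 679, 650.0 and 643 in Rbbp4Ins/Ins and 1046, 1204 and 1159 in Rbbp4Ins/Del (log2 fold change 0.79, SE 0.057, adjusted p = 2.3e-13). For both genes the 3 lines were in a strict order, and Rbbp4Ins/Del was the farthest from the control. Grb10, an adaptor that limits insulin and IGF signalling, had 9014, 8099 and 8562 in the control, 6020.0, 6347 and 6035 in Rbbp4Ins/Ins and 3634, 3681 and 3454 in Rbbp4Ins/Del (log2 fold change -0.77, SE 0.035, adjusted p = 1.9e-19).

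Plagl1, a zinc finger factor of the imprinted gene network, had 123, 100.4 and 114 normalized counts in Rbbp4Ins/Ins and 209, 239 and 238 in Rbbp4Ins/Del (log2 fold change 1.01, SE 0.12, adjusted p = 2.0e-08), with 21.4, 36.7 and 30.3 in the control. Nnat, a membrane proteolipid gene, had 47.0, 26.0 and 32.8 against 97.1, 89.3 and 86.8 (log2 fold change 1.33, SE 0.19, adjusted p = 1.0e-06). The non-coding Peg13 had 11.1, 6.77 and 14.8 against 30.7, 25.3 and 41.7 (log2 fold change 1.53, SE 0.32, adjusted p = 4.8e-04). All 3 were higher in both clones than in the control and highest in Rbbp4Ins/Del. Peg10, a retrotransposon-derived gene needed in the placenta, had a different order: it was lowest in Rbbp4Ins/Ins, with 11189.8, 11265 and 11273, and had 16847, 16746 and 17535 in Rbbp4Ins/Del and 19152, 19593 and 20200.2 in the control (log2 fold change 0.60, SE 0.027, adjusted p = 1.9e-19). Of the Dlk1-Meg3 cluster, Rian (0.42, adjusted p = 1.2e-10) and Mirg (0.41, adjusted p = 0.001) were higher while Meg3 (0.22, adjusted p = 0.011) and Dlk1 (0.39, adjusted p = 0.14) did not pass. Reads were not split by parental allele, so the values give each gene's total mRNA. Of 17 DNA methylation genes, 5 were higher (29.4%) and 0 lower, against 6.17% and 4.64% of all tested genes. The higher ones included Dnmt3l, a cofactor of the de novo methyltransferases (log2 fold change 0.35, SE 0.028, adjusted p = 2.1e-12), Dnmt3a (0.34), Tet2 (0.32) and the imprint guard Zfp57 (0.21). Dnmt1 (-0.029) and Uhrf1 (-0.039), which copy methylation at replication, did not pass.

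Signalling genes differed in part. Of 31 tested FGF and ERK genes, 6 were higher (19.4%) and 1 lower (3.23%), against 6.17% and 4.64% of all tested genes. The ERK-induced genes Spry4, a feedback inhibitor, and Etv4, a transcription factor, were higher. Spry4 had 2324, 2174 and 2269.7 normalized counts in Rbbp4Ins/Ins against 3339.8, 3402 and 3131 in Rbbp4Ins/Del (log2 fold change 0.54, SE 0.038, adjusted p = 7.3e-14), and Etv4 had 1201, 1214 and 1218 against 1729, 1660.2 and 1724 (log2 fold change 0.49, SE 0.042, adjusted p = 2.3e-11). Dusp6 (0.17) and Spred2 (0.17), further ERK inhibitors, and the ligand Fgf4 (0.12) were higher by less. The Dusp6 call was lost without Rbbp4Ins/Del replicate 1 (adjusted p = 0.0315) and without Rbbp4Ins/Ins replicate 1 (0.0128) or 3 (0.0201). The Spred2 call was lost without Rbbp4Ins/Del replicate 1 (0.0141) or 3 (0.0108). The list had 2 lower without Rbbp4Ins/Del replicate 1 or Rbbp4Ins/Ins replicate 2 or control replicate 1, 2 or 3. The receptor Fgfr2 was the lower one, with 425, 499 and 448 in Rbbp4Ins/Ins and 334, 319 and 302 in Rbbp4Ins/Del (log2 fold change -0.51, SE 0.071, adjusted p = 9.3e-07), while Fgfr1 (-0.033), Etv5 (0.047), Spry2 (0.05) and Egr1 (0.24) did not pass. Of 28 Nodal and BMP genes, 6 were higher (21.4%) and 2 lower (7.14%). The BMP-induced inhibitor Id1 had 576, 572 and 582 in Rbbp4Ins/Ins and 989.6, 991 and 1049 in Rbbp4Ins/Del (log2 fold change 0.81, SE 0.053, adjusted p = 1.8e-14). Id2 had 683, 833 and 800.3 against 939, 982 and 1032 (log2 fold change 0.36, SE 0.058, adjusted p = 1.3e-05), and the ligands Bmp4 and Nodal were higher by 0.39 and 0.31 on the log2 scale. The Nodal antagonist Lefty1 (-0.21) and the receptor Acvr2b (-0.18) were lower. Among 18 LIF and STAT3 genes the feedback inhibitor Socs2 was lower (-0.40, adjusted p = 6.5e-09), the receptor chain Lifr higher (0.21) and its partner Il6st lower (-0.21), whereas Stat3 and Socs3 did not pass. This list had 3 higher (16.7%) and 2 lower (11.1%), with 1 higher without Rbbp4Ins/Del replicate 1.

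Small shifts of many genes in 1 direction were seen for the ribosomal proteins. Of 79 tested genes 51 were lower in Rbbp4Ins/Del (64.6%, against 4.64% of all genes) and 0 higher, 74 estimates were below 0, and the median was -0.116 on the log2 scale, with estimates from -0.21 to 0.148. Their share of counted reads was 5.56%, 5.38% and 5.44% in the Rbbp4Ins/Ins libraries, 4.9%, 5.05% and 5.03% in the Rbbp4Ins/Del libraries and 5.12%, 5.27% and 5% in the control, so that Rbbp4Ins/Ins was the highest line. Rps15 had 14858, 14398 and 14341 normalized counts in Rbbp4Ins/Ins and 12292, 12623 and 12789.9 in Rbbp4Ins/Del (log2 fold change -0.21, SE 0.029, adjusted p = 6.7e-07). Rps20 had 17656, 16565 and 16775 against 14693, 14689 and 14859 (log2 fold change -0.21, SE 0.029, adjusted p = 9.9e-07). The clones did not overlap at either gene. Subunits of oxidative phosphorylation are about as short (median transcript 655 nucleotides against 696), and they had 1 of 72 higher and 3 lower (4.17%) and a median of -0.00918. All tested genes with transcripts under 1000 nucleotides had a median of -0.0132. Whether transcript length or abundance has a part in the shift was not tested. The count of lower ribosomal protein genes was 31 without Rbbp4Ins/Del replicate 1, and the list's median lay between -0.136 and -0.106 under the other scalings and fits and with any 1 library left out.

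**Figure D4:**
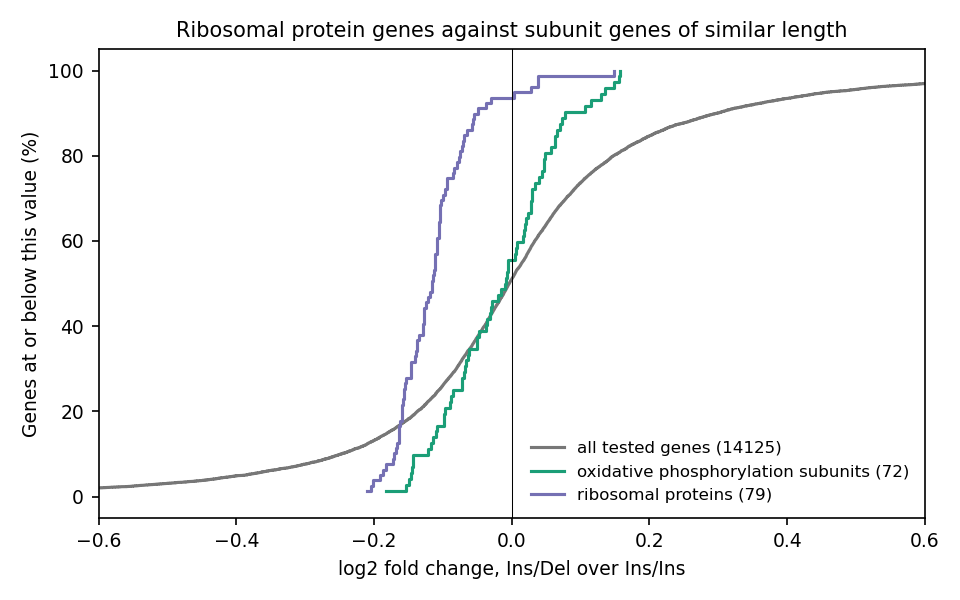
Share of genes at or below each log2 fold change (y, percent) for the log2 fold change of Rbbp4Ins/Del over Rbbp4Ins/Ins (x, shown from -0.6 to 0.6), for 79 ribosomal protein genes (purple), 72 oxidative phosphorylation subunit genes (green) and all 14125 tested genes (grey). The purple curve rises to the left of the green one, with its median at -0.116 against -0.00918.

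Glycolysis genes leaned the same way. Of 22 tested, 9 were lower in Rbbp4Ins/Del (40.9%) and 2 higher (9.09%), against 4.64% and 6.17% of all tested genes. Ldhb, the lactate dehydrogenase subunit of oxidative tissues, had 2780.2, 2729.8 and 2622 normalized counts in the control, 1777, 1653 and 1547 in Rbbp4Ins/Ins and 880.2, 979 and 854 in Rbbp4Ins/Del (log2 fold change -0.87, SE 0.05, adjusted p = 2.3e-16), the largest change of the list. The other 8, the enzymes Gpi1 (-0.20), Pfkl (-0.19), Tpi1 (-0.19), Pgk1 (-0.20), Aldoa, Gapdh and Hk2 and the glucose transporter Slc2a3 (-0.17), fell by at most 0.20 on the log2 scale. Eno3, the muscle enolase, was higher, with 339, 352 and 320.3 in Rbbp4Ins/Ins, 508, 486 and 526 in Rbbp4Ins/Del and 316, 311 and 327 in the control (log2 fold change 0.59, SE 0.069, adjusted p = 3.1e-08), and so was Ldha by 0.1. The list had 1 higher without Rbbp4Ins/Del replicate 1, 2 or 3 or Rbbp4Ins/Ins replicate 1 or 2. Pkm, Eno1, Hk1 and Slc2a1 did not pass. Of 19 hypoxia response genes 3 were lower (15.8%), Ddit4 (-0.49), Bhlhe40 (-0.36) and the mitophagy gene Bnip3 (-0.34, adjusted p = 3.8e-07). Ddit4 and Bhlhe40 were not called by DESeq2 (adjusted p = 0.022 and 0.092), and Vegfa and Egln3 did not pass in edgeR.

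Germ cell genes were higher in Rbbp4Ins/Del in part. Of 35 tested meiosis genes 7 were higher (20%) and 1, Sycp3, lower (2.86%), against 6.17% and 4.64% of all tested genes, with 4 higher without Rbbp4Ins/Del replicate 2 or Rbbp4Ins/Ins replicate 1 or 3. Hormad2, a protein of the unpaired chromosome axis, had 169, 158 and 198 normalized counts in Rbbp4Ins/Ins, 235, 254 and 241 in Rbbp4Ins/Del and 38.5, 38.8 and 43.3 in the control (log2 fold change 0.48, SE 0.098, adjusted p = 4.6e-04). Tex11, an X-linked crossover factor, had 409.7, 487 and 428 against 555, 605 and 591 (log2 fold change 0.41, SE 0.07, adjusted p = 3.5e-05). The RNA-binding protein gene Dazl was higher too (0.34, adjusted p = 9.6e-06), whereas Ddx4 (0.11), Stra8 (0.087) and Sycp1 (0.055) did not pass. In the X-linked Rhox homeobox cluster 2 of 7 were higher (28.6%) and 1 lower (14.3%). Rhox5 had 362, 355 and 356 in the control, 1929, 2001 and 1950.4 in Rbbp4Ins/Ins and 3014, 3172 and 3211 in Rbbp4Ins/Del (log2 fold change 0.68, SE 0.036, adjusted p = 2.8e-17). Rhox13 had 42.7, 34.6 and 41.1 in the control, 548, 559.7 and 575 in Rbbp4Ins/Ins and 734, 793 and 724 in Rbbp4Ins/Del (log2 fold change 0.42, SE 0.06, adjusted p = 1.2e-06). Both stood in the order control, Rbbp4Ins/Ins, Rbbp4Ins/Del with no overlap. Of 20 piRNA pathway genes 3 were higher (15%), Asz1, Fkbp6 and Mael, and 1 lower (5%), Tdrd12 (-0.38, adjusted p = 6.1e-08). The higher count did not hold, with 0 higher without Rbbp4Ins/Del replicate 2 or Rbbp4Ins/Ins replicate 1 or 3 and 1 higher without Rbbp4Ins/Del replicate 3. Fkbp6 was lost in 5 of the 6 fits without a mutant library (adjusted p up to 0.0315) and Mael in 4 (up to 0.0883) and in DESeq2 (0.0173).

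By the test against the control, 12 genes were called in both clones with opposite signs, where 29.0% of all tested genes were higher and 29.4% lower in Rbbp4Ins/Ins, and 30.6% higher and 31.9% lower in Rbbp4Ins/Del. Of these, 9 were below the control in Rbbp4Ins/Ins and above it in Rbbp4Ins/Del: Id1, Col4a1, Isyna1, G3bp2, Rcn1, Impact, Mest, Tnpo1 and Dag1. The other 3, Tfap2c, Fxyd6 and Gpx4, were above the control in Rbbp4Ins/Ins and below it in Rbbp4Ins/Del. Id1 had 796, 731 and 752 normalized counts in the control, so that Rbbp4Ins/Ins reached 75.3% to 76.7% of the control mean and Rbbp4Ins/Del 130.2% to 138.1%. Tfap2c, a transcription factor of trophectoderm and germ cells that naive ESCs also express, had 1297, 1246 and 1236 in the control, 1807, 1755 and 1726 in Rbbp4Ins/Ins and 1139, 1104 and 1015 in Rbbp4Ins/Del, that is 137.1% to 143.5% and 80.6% to 90.4% of the control mean. Gpx4, the peroxidase that protects membrane lipids, had 5943, 6024 and 5483 in the control, 6791, 6378 and 6347 in Rbbp4Ins/Ins and 5267, 5602 and 5344 in Rbbp4Ins/Del. Id1 and Tfap2c were far outside the control range on both sides. In Gpx4, Impact and Tnpo1 the lowest control library lay inside the range of a clone on one side. The comparisons share the control libraries. In the direct comparison, where a difference follows from how these genes were chosen, the log2 fold changes ran from -0.70 to 0.81. Part of the exons of G3bp2 (23.67%, Gm26582) and Mest (23.12%, Copg2) is overlapped on the opposite strand.

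**Figure D5:**
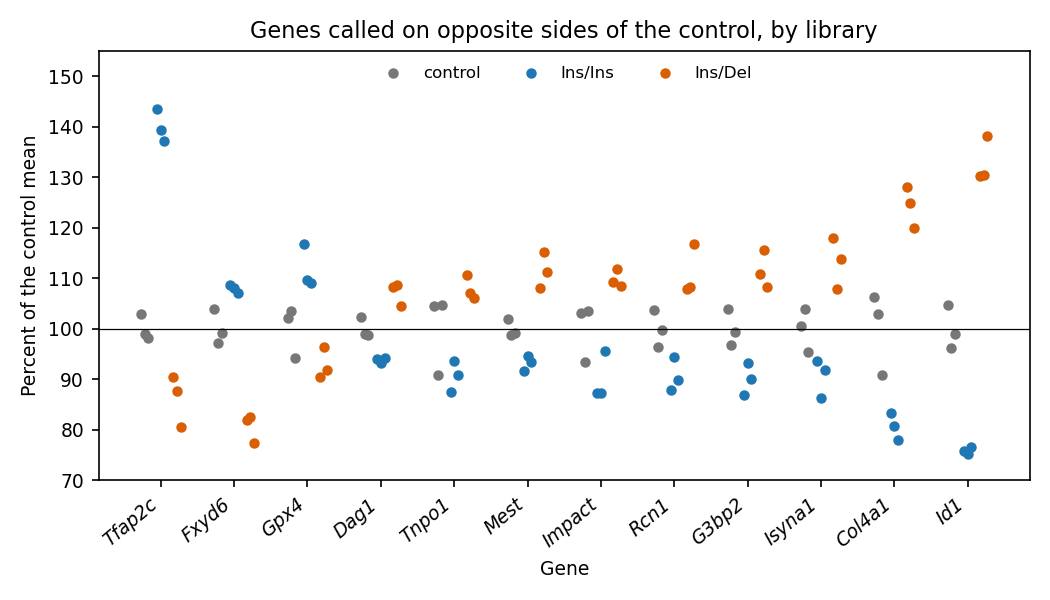
Normalized count as a percent of the control mean (y) in each library for the 12 genes (x) called on opposite sides of the control, with grey points for the control, blue for Rbbp4Ins/Ins and orange for Rbbp4Ins/Del. In Tfap2c, Fxyd6 and Gpx4 the blue points lie above 100% and the orange points below, and in the other 9 genes the colors are reversed.

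Differences between whole chromosomes were small on the autosomes and X. Their medians of the log2 fold change lay between -0.027 (chromosome 19) and 0.022 (chromosome 13), a spread of 0.049. Between replicate libraries the SD of chromosome medians was 0.00681. The 7 tested genes of the Y chromosome had a median of -0.138, with 1 lower. The X chromosome had 42 of 538 genes higher and 37 lower, 14.7% in all against 10.8%. Among 13605 runs of 25 consecutive tested genes, the highest median was 0.338 at chrX:72222017-73738534, which holds the Xlr copies and in which 12 genes were higher and 0 lower, among them the ERK phosphatase Dusp9 (0.20), the creatine transporter Slc6a8 (0.28) and Bcap31 (0.18). The others at the high end were chr9:36821864-41217990 (median 0.255), with Robo4 (0.71) the 1 gene called, and chr5:139706696-142608800 (0.199), with Foxk1 and Iqce among 4 higher. The lowest were chrX:106206883-134162076 (-0.28), with 4 lower including Hmgn5 (-0.49) and Sh3bgrl (-0.40), chr15:89059734-91049948 (-0.186), with 3 lower, Ppp6r2 and Mapk8ip2 among them, and chr11:69673115-69994951 (-0.168), in which 3 were higher and 3 lower. These runs are the extremes of many and carry no test. Of 259 gene symbol roots with 8 or more tested genes, the highest medians were those of Xlr (1.58), Akr (0.52), Cdh (0.236), Col (0.209) and Cyp (0.2), and the lowest those of Spag (-0.174), Ptpn (-0.144), Irf (-0.141), Unc (-0.139) and Dnah (-0.128).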

How the data were processed

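Whole-number read counts per gene symbol were deposited for 9 libraries. The submitters' processing notes name STAR 2.7.3, HTSeq, DESeq2 1.22.2 and the build mm10. The deposited counts were used as they stand: edgeR 4.0.16 in R 4.3.3 normalized them by TMM, dropped low genes by filterByExpr, and fitted 1 quasi-likelihood model to all 9 libraries in 3 groups, from which Rbbp4Ins/Del minus Rbbp4Ins/Ins was taken. P-values were adjusted by Benjamini-Hochberg over 14125 genes and called at 0.01 or below. The script was tested on simulated counts. Coordinates come from GENCODE and RefSeq annotation of GRCm38; 24323 symbols matched GENCODE and 789 RefSeq, while 43 matched several entries and 84 none. Named genes were Rbbp4 and Rbbp7; the 12 highest and 12 lowest called genes with a mean above 20 and no overlap; genes called on opposite sides of the control; up to 6 called members of each of 52 lists, with members that did not pass where needed; and the most abundant called genes of a named run. Members and lists were chosen with earlier results of these data known. Alternatives were DESeq2 1.42.0, other scalings, filters and thresholds, a replicate block, the 6 mutant libraries alone, and each library left out. Results for some genes are not reported here.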

Additional observations from a re-analysis of the deposited data

Results flagged for a closer look

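The 12 genes called against the control in both clones with opposite signs were flagged because the effects of the clones under the same contrast differed. The direct comparison of Rbbp4Ins/Del with Rbbp4Ins/Ins by edgeR used the same fit and libraries. A difference in it follows from how these genes were chosen, so it gives the size only and is no separate test. The log2 fold change of Rbbp4Ins/Del over Rbbp4Ins/Ins was 0.806 for Id1, 0.621 for Col4a1, 0.318 for Isyna1, 0.31 for G3bp2, 0.291 for Rcn1, 0.287 for Impact, 0.259 for Mest, 0.252 for Tnpo1 and 0.191 for Dag1. It was -0.697 for Tfap2c, -0.419 for Fxyd6 and -0.268 for Gpx4. All 12 contrasts against the control share the 3 control libraries. With 3 libraries a group, no test for a single outlying library was made.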

How the results depend on the processing

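Of 3624 values of named genes under the alternative fits, 3264 kept their direction and their side of the threshold, 360 kept the direction only and 0 reversed. The changed thresholds and the test for more than 2-fold are not part of these values. Values without an adjusted p were left out, as in DESeq2 for Xlr4b, Xlr4c and Xlr5b. The count of called genes was 1557 with size factors in place of TMM (991 higher, 566 lower), 1520 with total counts, 1691 with all genes that had a read, 1757 from the 6 mutant libraries alone and 1133 in DESeq2 (710 higher, 423 lower), which shared 1100 with edgeR. An adjusted p of at most 0.05 called 2682 (1426 higher, 1256 lower), and an unadjusted p of at most 0.01 called 2727 (1442 and 1285). The direct test for more than 2-fold called 0 higher and 0 lower, with a smallest adjusted p of 0.0595. With a mean count above 100, 6 genes passed 2-fold (5 higher, 1 lower), and the spread of chromosome medians was 0.037 in place of 0.049. With 1 library left out, 988 to 1646 genes were called, 576 to 943 higher and 406 to 703 lower; 38 to 45 passed 2-fold, 26 to 37 higher and 7 to 15 lower, and the chromosome spread was 0.0387 to 0.0641. The lowest count, 988, came without Rbbp4Ins/Del replicate 2, and 1014 came without Rbbp4Ins/Ins replicate 1. Without Rbbp4Ins/Del replicate 3, 422 were lower, and 406 without Rbbp4Ins/Ins replicate 1. With a replicate block 1499 were called (857 higher, 642 lower), 1458 of them shared. The deviations of same-numbered libraries of the clones correlated by 0.0237, 0.0241 and 0.0395, so the numbers were not taken as pairing, although each correlated best with its own number. Low counts limit most genes beyond 2-fold, of which 34 of 40 had a mean below 100.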

Other observations

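Smooth muscle and SRF genes were lower in Rbbp4Ins/Del where they differed, at 5 of 22 tested (22.7%, against 4.64% of all tested genes) and 0 higher, with 2 lower without Rbbp4Ins/Del replicate 2 or Rbbp4Ins/Ins replicate 1 and 3 lower without Rbbp4Ins/Del replicate 3. After Tagln these were the tropomyosins Tpm2 (-0.28) and Tpm1 (-0.16), the calponin Cnn2 (-0.19) and the non-muscle myosin Myh9 (-0.18, adjusted p = 1.1e-05 in edgeR), and the call was lost in 12 alternatives for Tpm2, in 4 fits without 1 library for Cnn2 (adjusted p up to 0.0285) and in 2 for Tpm1 (up to 0.0316). Of 56 Eph, ephrin, semaphorin and other guidance genes, Robo and netrin genes included, 7 were higher (12.5%, against 6.17%) and 0 lower. The list had 4 higher without Rbbp4Ins/Del replicate 3, 1 lower without Rbbp4Ins/Ins replicate 3 and 2 lower without Rbbp4Ins/Del replicate 1. Among them were the guidance receptor Robo4 (0.71) and the ligand Efnb2, with 142, 177 and 174 normalized counts in Rbbp4Ins/Ins and 229, 236 and 204 in Rbbp4Ins/Del, which was lost without Rbbp4Ins/Del replicate 2 (adjusted p = 0.0101) and Rbbp4Ins/Ins replicate 1 (0.0197). Of 21 Notch genes 3 were lower (14.3%), Dtx4 (-0.68), the receptor Notch3 (-0.37) and the ligand Jag2 (-0.35), and 0 higher, with 1 higher without Rbbp4Ins/Ins replicate 2. Of 36 Wnt genes 5 were lower (13.9%), with 2 lower without Rbbp4Ins/Del replicate 2 or Rbbp4Ins/Ins replicate 2 and 3 lower without Rbbp4Ins/Del replicate 3 or Rbbp4Ins/Ins replicate 1 or 3. The ligand Wnt7b (-0.58) was one of them, but was lost in DESeq2 (adjusted p = 0.011) and in 4 fits without 1 library (up to 0.0207). The 2 higher were the secreted Wnt inhibitor Notum (0.49) and the transcription factor Lef1 (0.36). Lats2, the Hippo kinase, had 35.1, 29.3 and 37.0 normalized counts in Rbbp4Ins/Ins and 75.6, 49.6 and 57.9 in Rbbp4Ins/Del (log2 fold change 0.84, SE 0.19, adjusted p = 0.0017), but was lost without Rbbp4Ins/Del replicate 1 (log2 fold change 0.648, adjusted p = 0.0326) and Rbbp4Ins/Ins replicate 2 (0.012). Its list of 21 had 2 higher (9.52%) and 2 lower (9.52%). The list had 0 higher without Rbbp4Ins/Del replicate 1 and 1 higher without Rbbp4Ins/Ins replicate 1 or 2. It had 1 lower without Rbbp4Ins/Del replicate 1, 2 or 3 or Rbbp4Ins/Ins replicate 1, 2 or 3.

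Among 29 glutathione transferases and Akr1 reductases 4 were higher (13.8%) and 3 lower (10.3%), against 6.17% and 4.64% of all tested genes. This list had 2 higher without Rbbp4Ins/Del replicate 2 or 3 or Rbbp4Ins/Ins replicate 1 or 3. Akr1b8 had 118, 100.4 and 104 normalized counts in Rbbp4Ins/Ins and 191, 217 and 205 in Rbbp4Ins/Del (log2 fold change 0.92, SE 0.12, adjusted p = 1.7e-07), and Gstm1 had 758, 678 and 686 and 508, 623 and 540.3 (log2 fold change -0.34, SE 0.066, adjusted p = 1.8e-04). The NRF2 targets were divided, with 3 of 19 higher (15.8%), Hmox1 (0.29), Nqo1 (0.28) and Me1 (0.25), and 3 lower (15.8%), Ftl1 (-0.27), Gsr (-0.16) and Txnrd1 (-0.15). Nqo1 was lost in DESeq2 (adjusted p = 0.0144) and in 3 fits without 1 library, Gsr in 3 and Me1 in 1. Of 14 fatty acid synthesis genes 3 were higher (21.4%), with 1 higher without Rbbp4Ins/Del replicate 3 and 1 lower without Rbbp4Ins/Del replicate 1. In the junction list of 22, the tight junction gene Cldn6 (-0.55) and the splicing factor Esrp1 (-0.32) were among 4 lower (18.2%), and E-cadherin, Cdh1 (0.24), and Vim were higher (9.09%).

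In the stress, cell cycle and other lists below the called shares are to be read against 6.17% higher and 4.64% lower over all tested genes. They were 16.7% higher and 8.33% lower of 24 ATF4 genes, 12% and 8% of 25 unfolded protein response genes, 9.09% and 9.09% of 22 interferon genes, 13.8% and 3.45% of 29 p53 targets, 13.3% and 3.33% of 30 G2/M genes and 5.56% and 2.78% of 36 DNA replication genes. These are 4, 3, 2, 4, 4 and 2 genes higher and 2, 2, 2, 1, 1 and 1 lower, and leaving out 1 library moved them. ATF4 genes had 1 higher without Rbbp4Ins/Del replicate 2 or Rbbp4Ins/Ins replicate 2 and 2 higher without Rbbp4Ins/Del replicate 1 or Rbbp4Ins/Ins replicate 3. The unfolded protein response had 0 lower without Rbbp4Ins/Del replicate 1 or 2 or Rbbp4Ins/Ins replicate 2 and 1 lower without Rbbp4Ins/Del replicate 3 or Rbbp4Ins/Ins replicate 3. Interferon genes had 1 higher without Rbbp4Ins/Del replicate 1, 2 or 3 or Rbbp4Ins/Ins replicate 2. P53 targets had 1 higher without Rbbp4Ins/Del replicate 2 and 2 higher without Rbbp4Ins/Ins replicate 1, 2 or 3, and 0 lower without Rbbp4Ins/Del replicate 1 or 3 or Rbbp4Ins/Ins replicate 1 or 2. G2/M genes had 2 higher without Rbbp4Ins/Del replicate 2 or 3 or Rbbp4Ins/Ins replicate 2 or 3. DNA replication had 1 higher without Rbbp4Ins/Del replicate 2 or 3 or Rbbp4Ins/Ins replicate 1, 2 or 3, and 0 lower without Rbbp4Ins/Del replicate 1 or 3 or Rbbp4Ins/Ins replicate 1 or 3. Among called members of the first 3 of these lists Chac1 (0.70), Herpud1 (0.53) and Ifitm1 (-0.64) had the largest changes, and Chac1 was lost in DESeq2 (adjusted p = 0.0479), with total counts (0.0112) and in 4 fits without 1 library (up to 0.115). Retinoic acid genes had 1 of 20 higher (5%) and 1 lower (5%), with 0 lower without Rbbp4Ins/Ins replicate 1 and 2 lower without Rbbp4Ins/Del replicate 2. X-linked core genes had 3 of 13 higher (23.1%) and 3 lower (23.1%), with 1 higher without Rbbp4Ins/Ins replicate 1, and 0 of 6 Hox genes and 0 of 2 histone genes were called. Of 7 Y-linked genes 1 was lower, Eif2s3y, with 1699.6, 1811 and 1862 normalized counts in Rbbp4Ins/Ins and 1359.6, 1437 and 1347 in Rbbp4Ins/Del (log2 fold change -0.37, SE 0.041, adjusted p = 1.1e-08). Mitochondrially encoded genes were not analysed here.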
